A study of Mus musculus with 4 samples.

Results

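Brain endothelial and mural cells were followed here through 5 genes, Cldn5, Slco1a4, Kdr, Sox17 and Tagln, in mouse CA1, a field of the hippocampus. The 5 genes were chosen by their known expression in the vessel wall and from their own log ratios on the arrays described below, with earlier results of these arrays in view. Their values are therefore a description, and no test of them is given. Each gene was printed as 1 spot, so they are 5 of 16281 spots. They are 5 of the 10622 named genes with any ratio and of the 8553 with a ratio on every array.

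Endothelial cells line the vessels of the brain. They form the blood-brain barrier through tight junctions that seal the gaps between cells and through transporters that choose what crosses. Mural cells, which are pericytes on capillaries and smooth muscle cells on larger vessels, wrap the endothelium and set vessel tone. The VEGF receptors steer endothelial growth and permeability, and SoxF transcription factors help to set arterial identity and barrier maturation.

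Young male mice of the inbred strain C57BL/6J all received MK-801, a blocker of NMDA-type glutamate receptors, at a labelled dose of 300 micrograms per g body weight. That figure is far above usual mouse doses and is printed only as labelled. The MK group received the drug alone. The MK C+S group received it 1 h ahead of contextual fear conditioning, which was 2 min in a new chamber ending in a foot shock of 1 s at 0.5 mA, repeated to 3 shocks. Total RNA of CA1 was compared 1, 2, 4 and 6 h after the final shock on 1 array with 2 dyes per time, MK in green and MK C+S in red. Both groups carried the drug, so neither shows the vessels of an undrugged animal, and the sources used here do not give how many mice an array stands for.

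Every value is a log10 ratio of the 2 channels, centred on the median of its array. The base of 10 is assumed, and positive is taken as the likely sign of more transcript after conditioning, although neither is stated. No time has a replicate, and with 1 dye orientation the dyes and the conditioning cannot be told apart. Each array gave a ratio for between 9162 and 10312 named genes. Spots of the same gene on 1 array differed with a pooled SD of 0.225, 0.204, 0.168 and 0.329 at 1, 2, 4 and 6 h, and this is the only error available for a single time. In bulk RNA of this kind, fewer vessel cells and less RNA per vessel cell cannot be told apart. Because ratios hold no levels, whether CA1 or vessel RNA was present in the expected amount could not be examined.

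The promoters of 3 of the 5 genes were in the RefSeq table used here (build GRCm38.p6, 250 bases before to 50 after the start site). All 3 are shown, and Sox17 and Tagln had no entry. These 3 genes, the junction gene, the transporter and the VEGF receptor, were also all more than 2-fold below 0 at 2 h. Sequences run 5′ to 3′ on the gene's strand, and capitals mark matches on either strand to a CCAAT box (CCAAT, or ATTGG on the other strand), a GC box (GGGCGG, or CCGCCC) or the SOX motif (AACAAT). No marked matches overlap each other.
Cldn5, chr16:18776597-18776896, plus strand: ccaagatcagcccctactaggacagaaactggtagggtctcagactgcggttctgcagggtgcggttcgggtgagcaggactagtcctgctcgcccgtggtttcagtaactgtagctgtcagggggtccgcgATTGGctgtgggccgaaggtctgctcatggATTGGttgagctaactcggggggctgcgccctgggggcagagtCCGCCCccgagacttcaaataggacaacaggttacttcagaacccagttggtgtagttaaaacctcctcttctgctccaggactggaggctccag
Slco1a4, chr6:141856171-141856470, minus strand: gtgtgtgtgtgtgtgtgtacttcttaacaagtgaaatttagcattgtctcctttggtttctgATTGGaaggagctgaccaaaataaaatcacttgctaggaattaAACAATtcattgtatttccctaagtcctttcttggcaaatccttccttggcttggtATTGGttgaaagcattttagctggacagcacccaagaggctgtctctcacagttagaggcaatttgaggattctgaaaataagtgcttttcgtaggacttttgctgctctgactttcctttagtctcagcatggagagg
Kdr, chr5:75978406-75978705, minus strand: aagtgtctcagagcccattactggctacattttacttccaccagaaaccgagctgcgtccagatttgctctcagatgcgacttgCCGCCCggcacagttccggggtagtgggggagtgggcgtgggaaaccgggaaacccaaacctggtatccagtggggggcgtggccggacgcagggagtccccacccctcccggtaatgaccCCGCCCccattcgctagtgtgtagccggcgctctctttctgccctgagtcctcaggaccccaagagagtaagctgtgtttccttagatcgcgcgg

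No marked motif was in all 3 promoters. Cldn5 had 2 CCAAT boxes and 1 GC box, Slco1a4 had 2 CCAAT boxes and 1 SOX motif, and Kdr had 2 GC boxes and neither of the others. Over 32851 promoter windows of the same length, 37.4% held a CCAAT box, 35.7% a GC box and 10.7% the SOX motif. The core of ETS factors, GGAA on either strand, occurred 5 times in Slco1a4, 5 times in Kdr and 0 times in Cldn5, and 96.0% of all windows held at least 1. One of those in Slco1a4 overlaps its first CCAAT box. The base composition differed as well, with 58.3% G and C in Cldn5, 40.7% in Slco1a4 and 60.7% in Kdr, beside a median of 52.7% over all windows. These matches describe letters only.

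Over the 20 values of the 5 genes, 16 were negative, 8 lay 2-fold or more below 0 and 1 lay 2-fold or more above 0. The values were not spread evenly over time. At 1 h, 1 of the 5 genes was 2-fold below, where 3.35% of all genes were below and 5.12% above by that size. At 2 h, 3 were below and 1 above, beside 4.14% and 2.44% of all genes. At 4 h, 2 were below, beside 4.58% below and 2.49% above among all genes. At 6 h, 2 were below, beside 11.7% and 10.2%. Because the genes were chosen on these values, nothing is read from the counts.

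**Figure D1:**
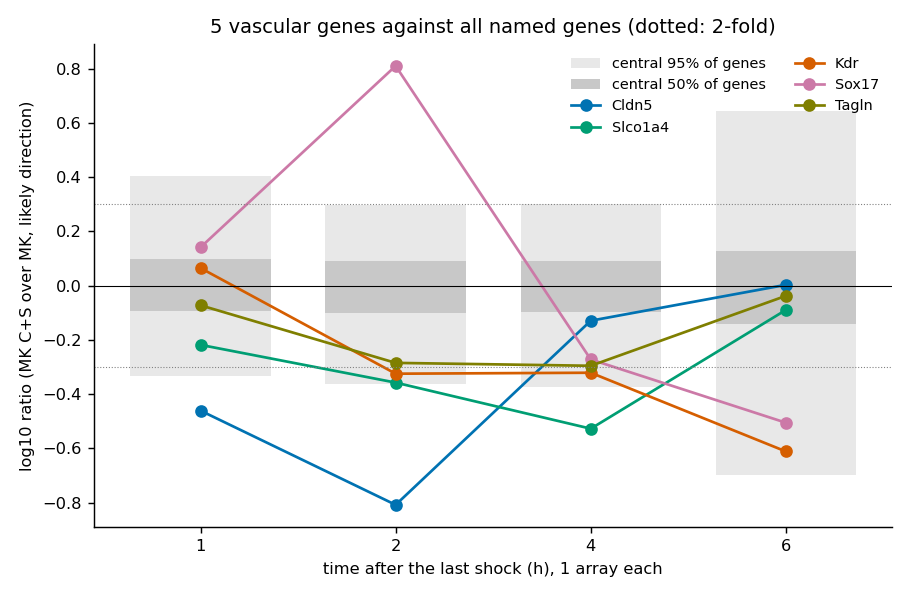
Log10 ratio of the 5 genes (points joined by lines) at 1, 2, 4 and 6 h, 1 array per time at equal spacing, with the central 50% and 95% of all named genes as grey boxes and 2-fold as dotted lines. At 2 h Sox17 stands at 0.810 and Cldn5 at -0.808, and at 4 h all 5 genes lie below 0.

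Cldn5 encodes claudin-5, the main sealing protein of endothelial tight junctions in the brain. At 1, 2, 4 and 6 h its log ratio was -0.461, -0.808, -0.129 and 0.00314. The first and second arrays were low, the last was at the array median, and the low values correspond to 2.89-fold at 1 h and 6.43-fold at 2 h. At 2 h, 37 of 10151 genes lay lower. The mean over the 4 arrays was -0.349 (SD 0.363, n = 4 arrays), and it was -0.196 without the 2 h array.

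Cldn5 was set beside the other claudins, which mostly seal epithelia. At 1 h the other 15 measured claudins ran from -0.357 (Cldn11, the claudin of myelin) to 0.499 (Cldn18), with a median of 0.104. Of these, 0 lay below Cldn5, 2 were 2-fold below 0, Cldn11 and Cldn23 (-0.303), and 3 were 2-fold above 0. Among all genes at 1 h, 3.35% were below and 5.12% above by that size. At 2 h they ran from -0.349 (Cldn15) to 0.319 (Cldn14), again with 0 below Cldn5. At 4 h 2 of 15 lay below it, and at 6 h 11 of 16 did, down to -1.82 for Cldn2, a claudin of choroid plexus. Cldn15, a pore-forming claudin of the gut, was negative on all arrays with a mean of -0.328 (SD 0.176). Its adjusted p was 0.416 in limma. Cldn5 thus had the lowest value of its family on the 1 h and 2 h arrays and on neither later one, and its distance from the next claudin was not tested.

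Slco1a4 encodes an organic anion transporter of the endothelial membrane that carries steroid conjugates and drugs. The log ratios at 1, 2, 4 and 6 h were -0.218, -0.357, -0.527 and -0.0894. It was negative on 4 of 4 arrays, lowest at 4 h, where the value corresponds to 3.37-fold and 122 of 10312 genes lay lower. The mean was -0.298 (SD 0.188, n = 4 arrays).

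Of its relatives, Slco1a1, a liver and kidney transporter of the same gene cluster, had values of -0.0644, -0.616, -0.505 and -0.663. They are low at every time but the first, where a single spot was measured. Its second spot read -0.696, -0.364 and -0.349 at 2, 4 and 6 h, where the first read -0.535, -0.646 and -0.977. The mean of -0.462 did not pass in limma (adjusted p 0.416). Slco1a5 read -0.00228, -0.203 and 0.0700 at 1, 2 and 4 h. Slco1c1, the thyroid hormone transporter of brain endothelium, read -0.167, 0.0156, -0.0994 and 0.112, with a mean of -0.0346. Slco1a genes resemble each other in sequence, and whether their spots shared signal was not tested.

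Kdr encodes VEGF receptor 2, which carries most of the growth signal of VEGF in endothelium. In order of time its log ratios were 0.0651, -0.325, -0.321 and -0.611. The 1 h value was close to 0, and the 3 later values passed 2-fold, at 2.11-fold, 2.09-fold and 4.09-fold. At 6 h all genes were spread more widely, and 3.31% of them lay lower than Kdr, much as at 2 h (3.45%) and 4 h (3.79%). The mean was -0.298 (SD 0.278, n = 4 arrays), or -0.193 without the 6 h array.

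Flt1, the VEGF receptor that also binds VEGF as a decoy, was the lowest of Kdr's relatives at 2 h, with -0.161, and at 6 h, with -0.323. Its values at 1 and 4 h were 0.0206 and -0.0239, and its mean of -0.122 had an adjusted p of 0.517 in limma and was -0.0548 without the 6 h array. At 6 h the other receptors of the family were spread up to 0.726 for Pdgfrb, the PDGF receptor of pericytes, and 0 of 6 lay below Kdr. At 4 h 1 of 7 lay below, Flt3, a receptor of blood precursors.

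Ligands were read beside the receptors. Of 14 measured ligand genes with a value on all arrays, 6 had a negative mean and 8 a positive one, with a median of 0.0211. Tgfb1, which signals to endothelium and mural cells, was positive on all arrays with a mean of 0.2999, or 0.168 without the 6 h array. The PDGF ligand gene Pdgfa had a mean of 0.149, and Edn1, which encodes the vasoconstrictor endothelin-1, was negative on all arrays with a mean of -0.156. These 3 genes were named for the largest means of the list, so small unadjusted p-values follow in part from that choice. All 3 had an unadjusted limma p under 0.05 (0.0463 for Pdgfa, 0.0270 for Tgfb1, 0.0290 for Edn1). Among all genes, 7.12% were negative and 4.26% positive at that threshold. None of the 3 passed after adjustment over all genes.

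Sox17 encodes a SoxF transcription factor of arterial endothelium. Its log ratios in order of time were 0.141, 0.810, -0.272 and -0.505. The early arrays were positive and the late ones negative. At 2 h the value corresponds to 6.46-fold, and 1 of 10151 genes lay higher. At 6 h it corresponds to 3.20-fold the other way. The mean of 0.0436 (SD 0.577, n = 4 arrays) thus averages opposite values, and without the 2 h array it was -0.212.

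Among 12 other measured Sox genes at 2 h, the highest was Sox18, the closest SoxF relative in vessels, at 0.285. Sox7, the remaining SoxF gene, was lowest at -0.204. Sox18 then read 0.0763 at 4 h and 0.139 at 6 h, where Sox17 was negative. The spots of Sox7 differed from each other, with -0.225, -0.424 and -0.595 at 1, 4 and 6 h in one and 0.307, -0.204, -0.133 and 0.452 at 1, 2, 4 and 6 h in the other. With spots of opposite sign at 1 and 6 h, the time course of Sox7 is not settled, and the difference between the SoxF genes was not tested.

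Tagln encodes transgelin, an actin-binding protein abundant in smooth muscle, and is the mural gene of the set. It read -0.0723, -0.285, -0.295 and -0.0375 in order of time. It was low at 2 and 4 h, where it stopped just short of 2-fold (1.93-fold and 1.97-fold), and near 0 at the ends. The mean was -0.172 (SD 0.137, n = 4 arrays), the smallest spread of the 5 genes.

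In its own family, Tagln2, a broadly expressed relative, was negative on all arrays with a mean of -0.119, and the neuronal Tagln3 had a mean of -0.00730. At 2 and 4 h 0 of 4 relatives lay below Tagln. Of the genes that define smooth muscle alongside it, Acta2, the smooth muscle actin, read -0.278, -0.318, 0.00858 and 0.182. Acta2 was thus low at 1 and 2 h and not at 4 h. At 2 h 1 of 13 measured smooth muscle genes other than Tagln was 2-fold below 0, Acta2, beside 4.14% of all genes. These 13 genes had a median of 0.00469 at that time, and 6 of them were negative. Tpm2, a muscle tropomyosin, had a mean of -0.176, but its spots read -1.39 and 0.623 at 6 h, and the mean was -0.108 without that array. Lmod1, a smooth muscle actin nucleator, was positive on all arrays with a mean of 0.243.

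**Figure D2:**
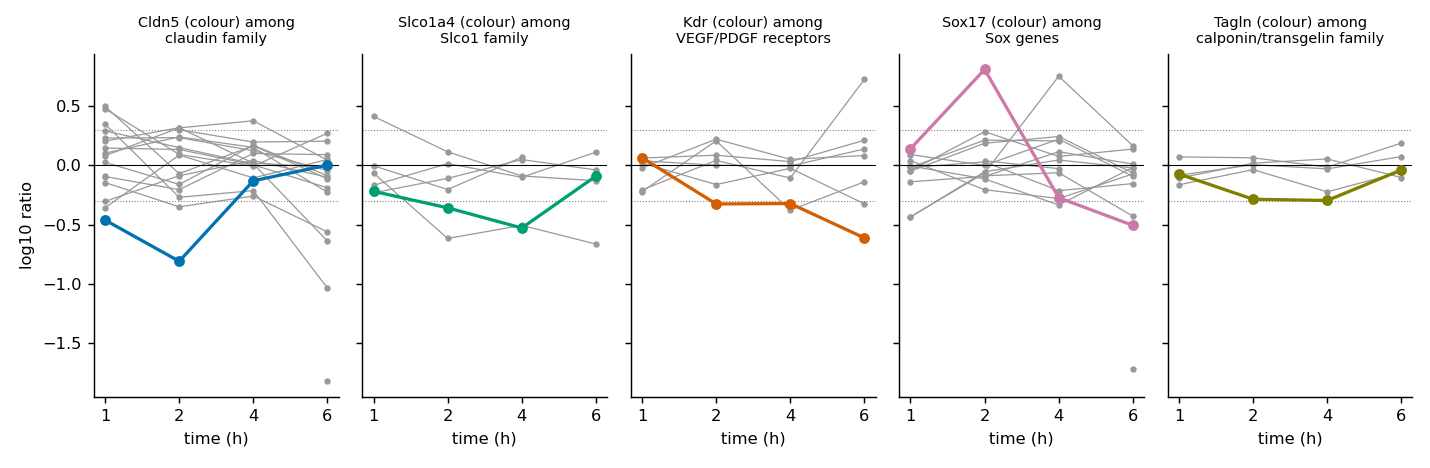
Log10 ratio at 1, 2, 4 and 6 h of each of the 5 genes (colour) and of the other measured genes of its family (grey, 1 line per gene, gaps where a ratio was missing). Cldn5 lies below all 15 other claudins at 1 and 2 h, and Sox17 above all 12 other Sox genes at 2 h.

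The order of the 5 genes was compared with the spread between spots of a gene, taking the SD of a difference between spots of the same gene as the yardstick (0.319, 0.288, 0.238 and 0.466 at 1, 2, 4 and 6 h). At 1 h the order ran Cldn5, Slco1a4, Tagln, Kdr, Sox17, and no neighbours differed by more than the yardstick. The whole range at 1 h was 0.602, more than the yardstick. At 2 h it ran Cldn5, Slco1a4, Kdr, Tagln, Sox17. Cldn5 lay 0.451 below Slco1a4 and Sox17 lay 1.10 above Tagln, both more than the yardstick, and the 3 genes between lay within it of each other. The yardstick covers spread between spots of an array alone and is no test of these genes, which were chosen on the same values. At 4 h Slco1a4 was lowest and Cldn5 highest, with no neighbours apart by more than the yardstick. The whole range there was 0.398, again more than the yardstick. At 6 h Kdr and Sox17 formed the low end and Cldn5 the high end, over a range of 0.614. That range too was more than the yardstick, and no neighbours differed by more than it. By place alone, Cldn5 went from lowest at 1 and 2 h to highest at 4 and 6 h. Sox17 went from highest at 1 and 2 h to second lowest at 6 h. At 1, 4 and 6 h these places rest on gaps within the yardstick, and the change of place was not tested.

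The place of each spot in the table was examined, since spots with nearby numbers can share a bias. The spots were number 17505 for Cldn5, 18098 for Slco1a4, 6376 for Kdr, 3413 for Sox17 and 11027 for Tagln. Against the measured spots among the 25 rows on either side, 5 of the 20 values lay below every neighbour, 1 lay above every neighbour and 5 lay within the neighbours' quartiles. The genes were chosen on these same values, and the share over all spots was not taken. Nothing is therefore read from these counts, and whether position shaped the values was not tested. Cldn5 was below all neighbours at 1 and 2 h, Kdr at 2 h and Tagln at 2 and 4 h, and Sox17 was above all of them at 2 h. The neighbours of Slco1a4 had a median of -0.139 at 4 h, and those of Cldn5 a median of -0.198 at 6 h. With a running median over 51 spots removed, Slco1a4 read -0.382 at 4 h and Cldn5 read 0.188 at 6 h. Kdr at 6 h, where its neighbours had a median of -0.135, then read -0.475. The signs of 3 values turned, Kdr at 1 h (-0.0306), Slco1a4 at 6 h (0.00460) and Tagln at 6 h (0.00593), all near 0.

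**Figure D3:**
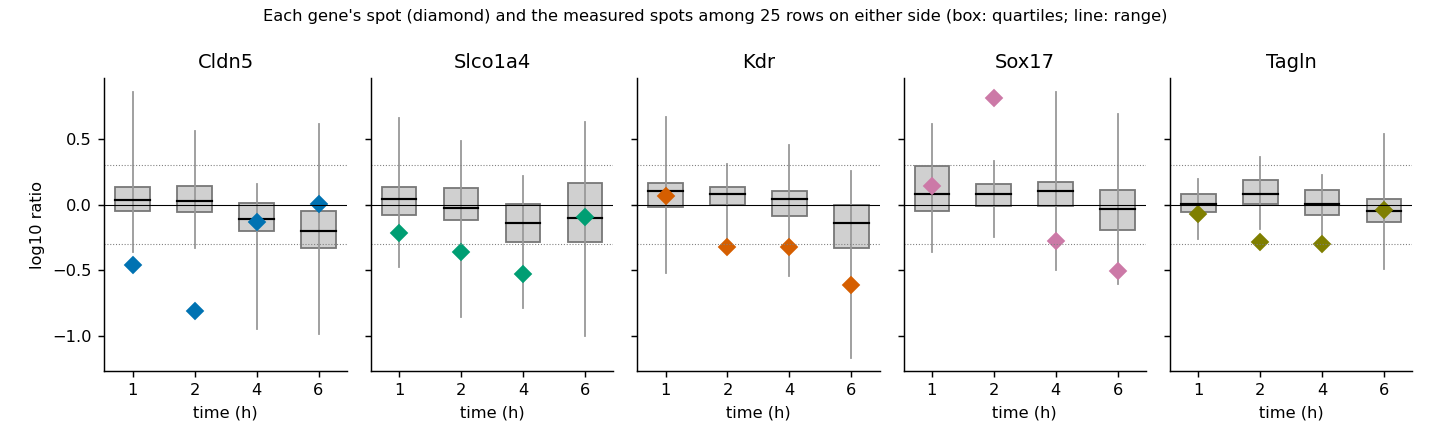
Log10 ratio of each gene's spot (diamonds) at 1, 2, 4 and 6 h with the measured spots among the 25 table rows on either side (box for quartiles, bar for median, line for range) and 2-fold as dotted lines. Cldn5 at 1 and 2 h and Tagln at 2 and 4 h lie below the whole range of their neighbours.

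Other genes of the vessel wall were read from 9 lists that cover junctions, transport, receptors, ligands, transcription factors, other endothelial genes, basement membrane, pericytes and smooth muscle. Without the 5 genes above they hold 146 genes, of which 123 had a ratio and 98 had one on all 4 arrays. In their means over the 4 arrays, these 98 genes did not lean the way of Cldn5, Slco1a4, Kdr and Tagln. A negative mean was found for 52 of 98 (53.1%), beside 53.9% of all 8553 genes, and their median mean was -0.0151, beside -0.00949 for all genes. In limma, 0% of all genes and 0 of the 98 passed at an adjusted p under 0.05. At an unadjusted p under 0.05, 7 of the 98 were negative and 7 positive (7.14% each), beside 7.12% and 4.26% of all genes.

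At single times, the share of low values in the vascular lists stood above that of the array at 2 and 4 h. At 2 h, 9 of 119 genes (7.56%) were 2-fold below 0 and 2 above, beside the 4.14% and 2.44% given for all genes. At 4 h, 9 of 120 (7.50%) were below and 2 above, beside 4.58% and 2.49%. The medians of the lists at 1, 2, 4 and 6 h were -0.0248, -0.0189, -0.0236 and 0.0421, beside 0.00130, -0.000738, -0.000952 and -0.00618 for all genes. At 2 h 69 of 119 genes (58.0%) were negative and at 4 h 67 of 120 (55.8%), beside 50.3% and 50.2% of all genes. At 1 h the negative share was 52.9%, beside 49.6%. At 6 h the lists leaned to the positive side, with 48 of 119 genes (40.3%) negative beside 51.4% of all genes. At 1 h 4 of 104 were below (3.85%) and at 6 h 16 of 119 (13.4%), near the shares of all genes. No test was made of these shares.

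Junction and adhesion genes other than Cldn5 had a positive mean in 8 of 12, beside 3942 of all 8553 genes, and a median mean of 0.0340. By time their medians were 0.0547, -0.00740, -0.0184 and 0.130, positive on the 1 and 6 h arrays only. At 2 h 7 of 13 were negative and at 4 h 8 of 13. Selp, the adhesion receptor P-selectin, had a mean of 0.285 that rested on 0.900 at 1 h. Vcam1, which binds white blood cells, was positive on all arrays with a mean of 0.132, and Jam2, a junction adhesion molecule, had a mean of 0.126. None passed in limma (adjusted p 0.498, 0.434 and 0.519). Without the 1 h array the mean of Selp was 0.0801. Without the 6 h array, where 1 of its 3 spots read 0.756, the mean of Jam2 was 0.0578.

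Barrier transport genes other than Slco1a4 had a negative mean in 9 of 14, with a median of -0.0242. Their medians at 1, 2, 4 and 6 h were -0.00772, -0.114, -0.156 and 0.0207. At 2 h 10 of 16 were negative and at 4 h 12 of 16, beside 50.3% and 50.2% of all genes. At 1 h 7 of 14 were negative and at 6 h 7 of 15. Before adjustment, limma gave p below 0.05 to 3 genes with a negative mean and 1 with a positive mean. None passed after adjustment, and the lean at 2 and 4 h was not tested. The glucose transporter Slc2a1, a defining gene of the barrier, was on the other side from Slco1a4 with 0.166, 0.315, 0.186 and 0.265. It was positive on 4 of 4 arrays, with a mean of 0.233 (SD 0.0694) and an adjusted p of 0.416 in limma. Car4, a carbonic anhydrase of the capillary surface, was negative on all arrays with a mean of -0.314, and the thiamine transporter Slc19a3 had a mean of 0.214 that rested on 0.739 at 6 h. Without that array the Slc19a3 mean was 0.0396, and the Car4 mean -0.195.

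Receptors other than Kdr were split, with 7 of 14 negative and a median of -0.0161, which was 0.0241 without the 2 h array. The lipid receptor S1pr1, which steadies endothelial junctions, was negative on all arrays with a mean of -0.349, and its 6 h value of -0.963 came from 1 spot. Without the 6 h array its mean was -0.145. Notch1 had a mean of -0.172, which was -0.0666 without the 6 h array, and Notch4, a Notch receptor of endothelium, was positive on all arrays with a mean of 0.149.

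Transcription factors other than Sox17 had 6 negative and 6 positive means. Their median of 0.0149 turned to -0.0499 without the 1 h array, to -0.0130 without the 2 h array and to -0.0422 with exact 0 kept as a ratio of 1. Klf4, a flow-responsive factor, had a mean of -0.216 (-0.142 without the 1 h array), the Notch target Hey1 a mean of 0.140, and Epas1, the hypoxia factor of endothelium, a mean of -0.128 that was 0.0121 without the 6 h array.

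The other endothelial genes, the basement membrane and the pericyte genes had the lowest medians of the 9 lists, on few genes and resting on single arrays. The other endothelial genes were at -0.0754, with 5 of 8 negative, but at -0.0258 without the 1 h array, -0.0402 without the 2 h array and -0.0163 with exact 0 kept. Among them was Cav1, which forms caveolae, at -0.181. The Cav1 mean was -0.0646 without the 2 h array, where its spots read -0.121 and -0.938. Basement membrane genes were at -0.129 with 3 of 5 negative. Their median was -0.236, -0.0149 and -0.0335 when the 2 h, the 4 h or the 6 h array was left out. The laminin chain gene Lama4 was at -0.240, or -0.154 without the 6 h array. Among pericyte genes 7 of 9 had a negative mean, and the median was -0.0850, or -0.0456 without the 1 h array. Mcam, an adhesion molecule of pericytes, was negative on all arrays with a mean of -0.174, as was Tbx18, a mural transcription factor, with -0.166. The mean of Mcam was -0.111 with the running median removed, and that of Tbx18 was -0.0996 without the 6 h array. Pdgfrb had a mean of 0.114, which was -0.0897 without the 6 h array. The smooth muscle genes other than Tagln were split 5 to 5 with a median of 0.00382, which turned to -0.00400 if the 4 h array was left out and to -0.00905 if the 6 h array was. None of the genes named here from these lists passed in limma, where 0% of genes did.

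**Figure D4:**
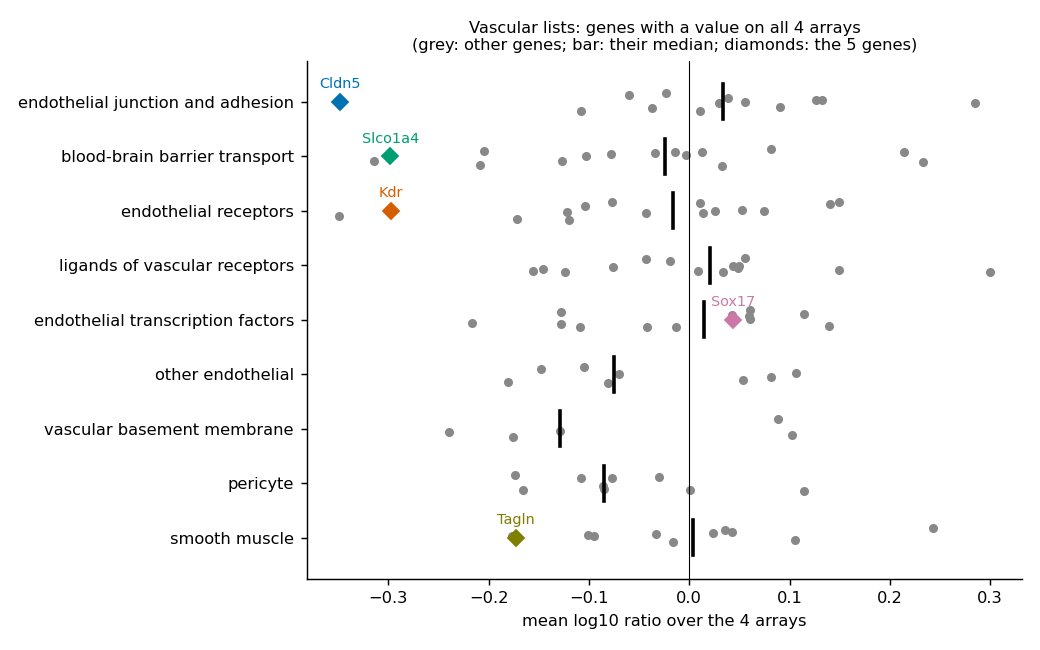
Mean log10 ratio over the 4 arrays of the genes of 9 vascular lists with a value on all arrays (grey points), the median of each list without the 5 genes (black bars) and the 5 genes (diamonds). Cldn5, Slco1a4, Kdr and Tagln lie toward the low end of their lists, whose medians run from -0.129 to 0.0340.

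Markers of vessel cells and of neighbouring cell types were set beside these values. Of the endothelial markers other than the 5 genes, 6 of 9 had a negative mean, beside 53.9% of all genes, and the median was -0.0346. By time their medians were 0.0206, -0.0690, -0.0994 and -0.00492. Of the 9 markers, 3, 7, 8 and 5 were negative at 1, 2, 4 and 6 h. The shares of all genes were 49.6%, 50.3%, 50.2% and 51.4%. Mural markers other than Tagln were negative in 5 of 5 at 1 h, with a median of -0.221, and in 1 of 7 at 6 h, with a median of 0.153. Among all genes 49.6% were negative at 1 h and 51.4% at 6 h. Abcc9 and Myh11 were measured at 6 h and not at 1 h. The largest means among endothelial markers were 0.141 for Tie1, an endothelial receptor, and -0.148 for Itm2a. Among mural markers they were 0.114 for Pdgfrb and -0.108 for Kcnj8, a potassium channel of pericytes. The difference between the 5 genes and the other markers was not tested.

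Choroid plexus markers were the group furthest from 0 at 1 h, the time of Cldn5's second lowest value, with 6 of 8 at 2-fold or more above 0 and a median of 0.469. At 2, 4 and 6 h their medians were -0.0136, -0.00108 and -0.115. Ttr, a marker of choroid plexus, read -0.665, -1.27 and -0.115 at 2, 4 and 6 h and was not measured at 1 h. At 4 h 1 of 8 markers was 2-fold below 0, Ttr, beside 4.58% of all genes. The markers with the largest means were of opposite sign. Aqp1 was positive on all arrays with a mean of 0.226, and Kl was negative on all with a mean of -0.263. The spots of Kl ran from -1.91 to 0.715 at 1 h, and its mean was 0.0480 with the median of spots. Astrocyte markers had medians between -0.0393 and 0.0784 over the 4 times, microglial markers between -0.0589 and 0.146, meningeal fibroblast markers between -0.0512 and 0.0916, and oligodendrocyte markers between -0.0509 and 0.0656. Blood cell markers lay between -0.116 and 0.0869. The CA1 neuron markers Wfs1 and Neurod6 had means of 0.207 and -0.217. The part of any of these in the values of the 5 genes was not tested.

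The genes with the most similar time courses were sought among the 8552 others, by the root mean square difference over the 4 arrays, and 2 were named for each gene. For Cldn5 these were Ephb4, an ephrin receptor of venous endothelium, at 0.199, and Cspp1, a centrosome gene, also at 0.199. The Ephb4 value joins spots that read -0.955 and -0.242 at 2 h and, with opposite sign, -0.890 and 0.441 at 6 h. At 4 h only 1 of its spots was measured. For Sox17 they were the zinc finger gene Zfp275 (0.170) and Pecam1 (0.206), an adhesion molecule that marks endothelium. Pecam1 read 0.0720, 0.459, -0.122 and -0.366, positive and negative at the same times as Sox17. Of the 10 genes named in this way, 1 was on the vascular lists, Pecam1. These lists hold 98 of the 8553 genes with a ratio on all arrays, and Ephb4 is not on them. Nothing is read from this count.

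The nearest genes to Slco1a4 were Tomm70a, a mitochondrial import receptor (0.0877), and Efcab3 (0.0911). For Kdr they were Cby2 (0.0556) and Sdcbp2 (0.0584), and for Tagln the mitochondrial genes Tmem14c (0.0292) and Mettl15 (0.0353). Genes of small values have many near neighbours. The spots of Tomm70a (18258) and Efcab3 (18386) had numbers close to that of Slco1a4 (18098), and those of Cby2 (16358) and Sdcbp2 (16415) were close to each other. The part of position in these likenesses was not tested. Among the 5 genes themselves, Slco1a4 and Tagln were the most alike, at 0.144, with 33 genes nearer to Slco1a4 than Tagln was and 720 genes nearer to Tagln than Slco1a4 was. Cldn5 and Sox17 were the least alike, at 0.903, where the median over all genes was 0.493 for Cldn5 and 0.518 for Sox17.

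**Figure D5:**
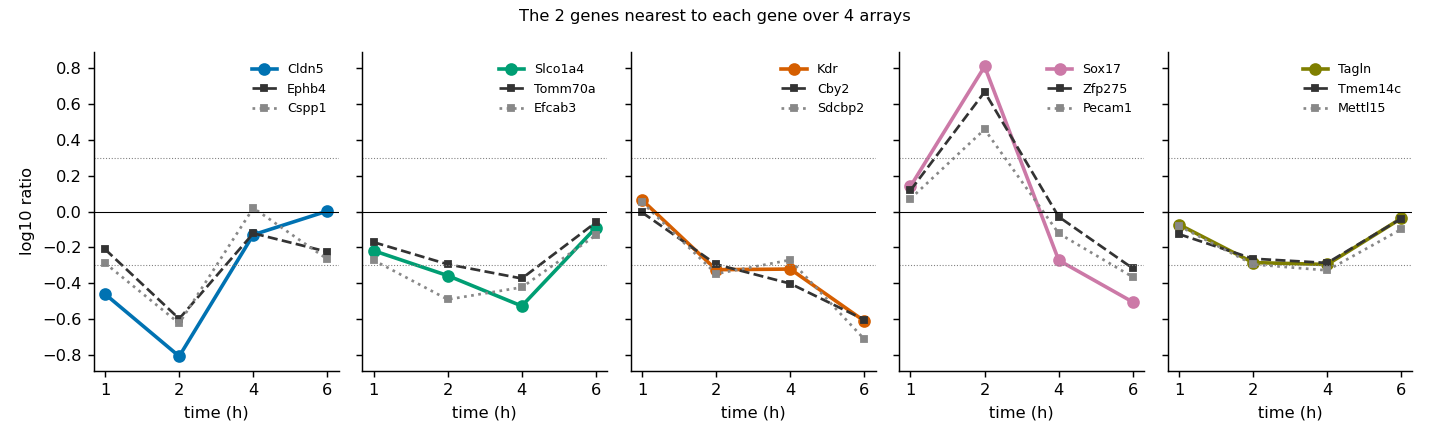
Log10 ratio at 1, 2, 4 and 6 h of each of the 5 genes (solid lines) and of the 2 genes with the smallest root mean square difference from it over the 4 arrays (dashed and dotted lines), with 2-fold as thin dotted lines. Pecam1 follows Sox17 at 0.206 and reaches 0.459 at 2 h.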

How the data were processed

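CA1 RNA of MK and MK C+S mice was compared on 4 arrays with 2 dyes, 1 per time, grouped by time from the labels. The authors deposited 1 log ratio for each spot, read here as log10 from the range (-3.10 to 1.58). The sources used here do not give the base, direction, centring, scanner or software, and intensities were not used. An exact 0 was taken as no measured ratio, and the median of the measured spots (between -0.00544 and 0.00547) was subtracted. A platform annotation gave 1 gene for 13738 of 16281 spots, and 13694 of these matched RefSeq by Entrez ID. A gene's value is the mean of its spots, and 2-fold is 0.301.

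The mean over times was tested across all 8553 genes on all 4 arrays with limma 3.58.1 (R 4.3.3), two-sided, with Benjamini-Hochberg adjustment at 0.05. The spread between times is its error. It was tested on simulated data. The 5 genes and all lists were chosen with earlier results of these data known. Named were the 3 largest means per vascular list, the 2 largest per marker list, genes of the 5 families, and the 2 nearest genes per member. Acta2 and Ttr were added after their values were seen.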

Additional observations from a re-analysis of the deposited data

Results flagged for a closer look

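Sox17 lay past 2-fold in opposite directions at 2 times, with a log10 ratio of 0.810 at 2 h and -0.505 at 6 h, each from 1 spot on 1 array. Cldn7, an epithelial claudin on 1 spot, did so with 0.350 at 1 h and -1.03 at 6 h. The difference between times was not tested in either gene, since no time has a replicate.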

How the results depend on the processing

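Depth of signal over background is unknown, and most of what moved depends on the assumed log base and size. Of the 20 values of the 5 genes, 9 passed 2-fold, and 13 did at 1.5-fold, 12 with columns scaled to a common spread, 11 with a running median over 51 spots removed, 5 at 3-fold, 2 with values read as natural logs and 0 read as log2. Genes past 2-fold in all numbered 776, 668, 729 and 2211 at 1, 2, 4 and 6 h. They were 2299, 2457, 2377 and 4029 at 1.5-fold, 226, 176, 178 and 1091 at 3-fold, 69, 59, 65 and 438 with natural logs, and 22, 23, 23 and 93 with log2. The limma count of 0 became 2 with array weights and 1 with genes on 3 or more arrays, and 0 to 1 with each array left out (1 without the 4 h array). None of the genes so called was on the vascular lists without the 5 genes. With each array left out, the means ran from -0.466 to -0.196 for Cldn5, -0.368 to -0.222 for Slco1a4, -0.419 to -0.193 for Kdr, -0.212 to 0.227 for Sox17 and -0.217 to -0.131 for Tagln, and the median of the vascular lists from -0.0335 to -0.00662. The Sox17 mean was also -0.0131 with a running median over 51 spots removed. No paired analysis was possible because each time has 1 array.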
